A study of Mus musculus with 14 samples.

Results

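The inter-alpha-trypsin inhibitor chains and their partners are 8 genes: the 5 heavy chain genes Itih1 to Itih5, and the 3 partner genes Ambp, Tnfaip6 and Ptx3. They were taken by gene name from the non-control probes of the scanner files, and all 8 were found, with 11 probes, among 34741 genes by name and 55681 probes. Where a gene had several probes, the one with the highest mean log2 signal stands for it, and 6 of the 8 genes had 1 probe. The set was chosen by the sinus difference of Itih3 among the laser-captured samples, so the sinus values of those samples are given below as a description, with no test.

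Inter-alpha-trypsin inhibitors are secreted proteins in which heavy chains are joined to bikunin, a Kunitz-type protease inhibitor, through a chondroitin sulfate chain. Tnfaip6, also called TSG-6, moves heavy chains from bikunin onto hyaluronan, and the pentraxin Ptx3 binds heavy chains and helps to crosslink the hyaluronan matrix. The liver is the main known source of the plasma proteins, and hyaluronan drains from tissues with the lymph and is taken up in lymph nodes.

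The mice were C57Bl/6, and no other genotype, treatment or age is given. Lymphatic endothelium of the lymph node was taken in 2 ways. Medullary LCM (5 samples) and subcapsular LCM (5 samples) came from laser-capture microdissection, 50 cells per sample, of frozen sections stained for CD31, an endothelial protein, and F4/80, a macrophage protein. Medullary FACS (2 samples) and subcapsular FACS (2 samples) held 1200 cells each, sorted by fluorescence from nodes digested with liberase and DNase I, with antibodies to a blood-lineage cocktail, CD73 and podoplanin and a dye for dead cells. RNA was amplified by the SuperAmp method, labelled with Cy3 and put on 1 Agilent array per sample, and the sources used here do not tie samples to animals, so the p-values measure the spread between these samples. Fewer cells of a type and less RNA per cell cannot be told apart in such samples.

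Between 50.8% and 79.0% of probes were well above background on an array. Medullary LCM replicates 1 to 3 shared slide 1 with all subcapsular LCM arrays, and replicates 4 and 5 shared slide 2 with the 4 arrays of sorted cells. In FACS each sinus lay in its own row of the slide, so sinus and row cannot be told apart there. Lymphatic markers were in part above background on the medullary FACS arrays and in part not. Prox1, the transcription factor that defines lymphatic endothelium, was above background on all 14 arrays. Pecam1, which encodes CD31, had log2 signals of -3.83 and -3.36 on the medullary FACS arrays, against 3.97 and 5.27 on the subcapsular FACS arrays. Mmrn1 and Sox18 were above background on 0 of 2 medullary FACS and 2 of 2 subcapsular FACS arrays. Pdpn, which encodes the podoplanin of the sort, was above background on 2 of 2 medullary FACS arrays with a median of -0.92, against 1 of 2 subcapsular FACS arrays with a median of -5.25. Of 9 lymphatic genes tested in FACS, 4 had a higher mean in medullary and 5 in subcapsular samples, where 59.5% of all genes were higher in medullary samples. Their median difference, medullary minus subcapsular, was -1.99 (log2), against 0.73 over all genes. All levels below are log2 signals relative to the 75th percentile of the array, so 0 is the level of that percentile, and levels are compared between arrays and not between probes.

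Itih3 encodes a heavy chain that can be joined to bikunin and transferred to hyaluronan. Its level in medullary LCM samples was 0.01, 2.11, 0.85, 1.79 and 1.25 in replicates 1 to 5, and in subcapsular LCM samples -4.45, -5.62, -7.07, -6.90 and -6.04. All 5 medullary values were well above background and none of the 5 subcapsular values was, so the groups did not overlap. The mean was 1.20 ± 0.82 in medullary LCM and -6.02 ± 1.06 in subcapsular LCM samples (SD, n = 5 each), a difference of 7.22 ± 0.65 on the log2 scale (SE). With the lowest signal of any probe above background on each subcapsular array as the floor, medullary LCM samples were 68.3-fold higher. Some probes with signals over that floor were not above background, so this is not a strict lower bound. This is also the contrast by which the gene was chosen. With normexp background correction, which adds an offset to dim signals, the log2 difference was 3.38. In slide 1 alone the medullary values were 0.01 to 2.11, against -7.07 to -4.45 for the subcapsular values, a difference of 7.00. Slide 2 held no subcapsular LCM array. In row 1 of the slides the medullary values were 1.25 and 1.79, against -7.07 to -4.45 in 4 subcapsular samples, and in row 2 they were 0.01 to 2.11, against -6.04 in 1 sample.

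Itih3 was not found in sorted cells of either sinus. Its level was -6.71 and -6.61 in medullary FACS samples and -7.43 and -7.32 in subcapsular FACS samples, none above background. With the same kind of floor, the medullary FACS samples were 54.6-fold lower than medullary LCM samples, whose arrays of slide 2 had 1.79 and 1.25 beside them. The FACS minus LCM difference was -4.61 ± 0.48 and the interaction, which is the FACS sinus difference less the LCM one, was -6.50 ± 0.96 (log2, SE), both as a description, since they contain the arrays by which the gene was chosen. Of 27323 genes in the LCM comparison, 58 (0.212%) were above background on all 5 medullary and 0 subcapsular LCM arrays, and 3 (0.011%) of these, Itih3 among them, were also above background on 0 of 4 FACS arrays.

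**Figure D1:**
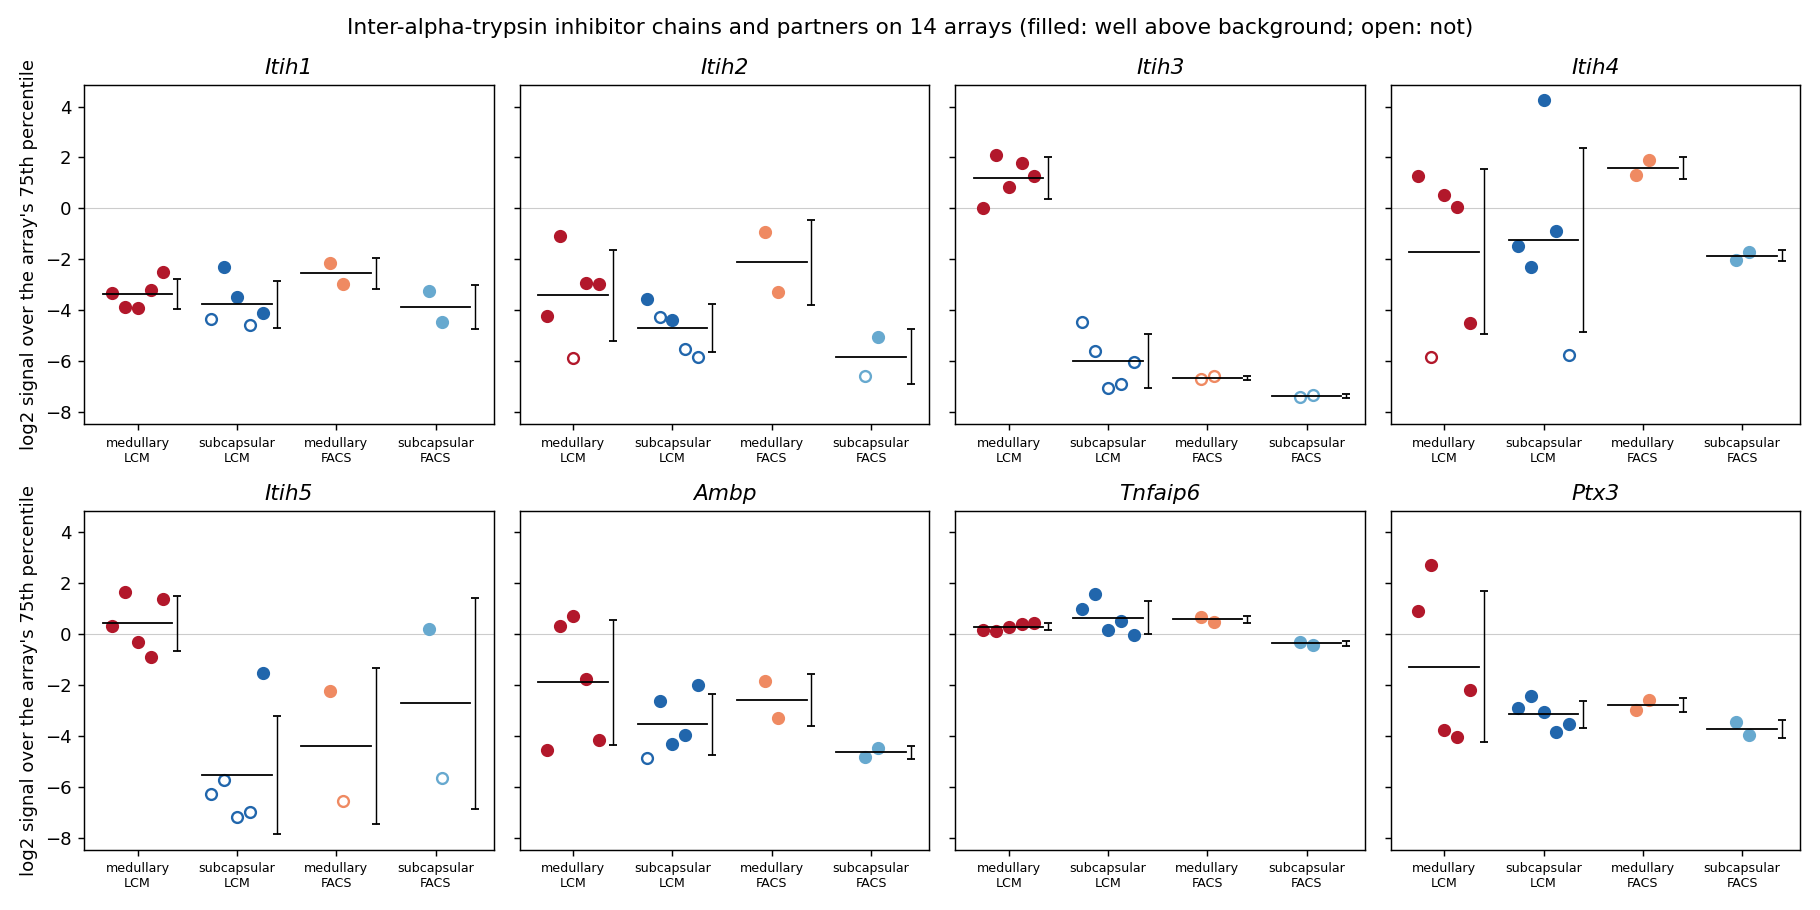
Level of the 8 genes on each array (log2 signal over the 75th percentile of the array), in medullary LCM, subcapsular LCM, medullary FACS and subcapsular FACS samples, with filled points for values well above background, open points for values that were not, lines for means and bars for SD. Itih3 is filled in the 5 medullary LCM samples only, Itih5 in these and in 3 other samples, and the other genes overlap between the sinuses in LCM.

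Itih5 encodes a heavy chain family member known as a matrix protein of several tissues. Its level in medullary LCM samples was 0.31, 1.64, -0.29, -0.89 and 1.39, and in subcapsular LCM samples -6.30, -5.75, -7.18, -7.00 and -1.52. The 5 medullary values were above background, and of the subcapsular values only that of replicate 5 was, which was also the highest and still below every medullary value. Of all genes, 1.37% had this detection, in all 5 medullary and at most 1 subcapsular sample. The groups did not overlap, which held for 1.03% of all genes with medullary samples higher, and the difference was 5.98 ± 1.06 (log2, SE). Without subcapsular replicate 5 it was 6.99, and with normexp background correction it was 2.44. In slide 1 alone it was 6.11. In row 1 of the slides the medullary values were -0.89 and 1.39, against -7.18 to -5.75 in 4 subcapsular samples, and in row 2 they were -0.29 to 1.64, against -1.52 in the 1 subcapsular sample, replicate 5.

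In sorted cells Itih5 was split within each sinus. It had -2.23 and -6.57 in medullary FACS samples, against 0.22 and -5.65 in subcapsular FACS samples, and 1 of 2 samples of each sinus was above background. It was not tested there, because it was not above background in both samples of a sinus. In the fit of all 14 arrays the interaction of Itih5 was -7.66 ± 2.42 (log2, SE), given with no test because it contains the LCM sinus difference. Without subcapsular FACS replicate 6, the higher sample of its group, it was -4.73.

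Itih3 and Itih5 had a Pearson correlation of 0.71 across the 14 arrays, the highest between any pair of the 8 genes, given as a description over arrays that share their groups. The genes most like Itih3 among 16884 measured genes were Prdx6b, a peroxiredoxin gene copy (r = 0.936), Esam, an adhesion molecule of endothelial junctions (r = 0.928), and Fut7, a fucosyltransferase that makes selectin ligands in high endothelial venules (r = 0.908). Fut7 had a median of 3.23 in medullary LCM and -3.62 in subcapsular LCM samples, and was above background on all 14 arrays. Esam had medians of 0.92 in medullary LCM and -2.94 in subcapsular LCM samples. The genes most like Itih5 were Vwa5a (r = 0.958), Mustn1 (r = 0.911) and Pramel23 (r = 0.902). Vwa5a was above background on the same number of arrays as Itih5, namely 8.

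The probes that carry these levels are 60 bases long, and all values of Itih3 and Itih5 rest on 1 probe each. The last 30 bases of the Itih5 probe are shown because its signal parts samples of the same sinus in sorted cells. The Itih5 probe lies on the plus strand at chr2:10177988-10178047, on mouse build mm9 as the scanner files give it. Exon or untranslated region was not assigned for this build.
Itih5 probe: agatctattcacatgcacaaatatttacca

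In the RefSeq gene order, Itih4, Itih3 and Itih1 follow each other on chromosome 14, and Itih2 and Itih5 are neighbours on chromosome 2, with no other protein-coding gene between them. The 250 bases before the start of Itih3 and Itih5 are shown because these genes had the largest sinus differences of the set in LCM. They were read from RefSeq on GRCm38.p6, a later build than that of the probes, at chr14:30923588-30923837 on the minus strand for Itih3 and chr2:10153293-10153542 on the plus strand for Itih5. Capitals mark matches, on either strand, to GGGCGG, the core of a GC box.
Itih3 upstream: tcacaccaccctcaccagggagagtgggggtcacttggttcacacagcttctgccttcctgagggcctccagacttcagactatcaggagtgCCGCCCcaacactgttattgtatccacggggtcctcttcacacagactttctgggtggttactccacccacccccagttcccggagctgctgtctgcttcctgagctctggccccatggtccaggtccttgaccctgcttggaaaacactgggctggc
Itih5 upstream: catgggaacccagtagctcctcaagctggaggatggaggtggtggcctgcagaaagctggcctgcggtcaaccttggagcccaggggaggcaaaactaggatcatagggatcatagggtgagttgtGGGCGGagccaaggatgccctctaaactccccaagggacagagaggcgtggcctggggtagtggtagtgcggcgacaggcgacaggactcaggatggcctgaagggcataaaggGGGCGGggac
Itih3 has 1 match and Itih5 has 2, and 32.7% of 32851 promoter windows of the same length have at least 1. Of the other 6 genes, Tnfaip6 has 1 match. Neither TATAAA, which 12.4% of windows have, nor CCGGAA, which 12% have, is found in the window of any of the 8 genes. A match is a description of the letters only.

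Itih1 encodes a classical heavy chain of the plasma complex. Its level was -3.31, -3.88, -3.93, -3.21 and -2.49 in medullary LCM samples, against -4.35, -2.33, -3.50, -4.58 and -4.13 in subcapsular LCM samples. The highest value was a subcapsular one, the groups overlapped, and 5 medullary and 3 subcapsular values were above background. The difference of 0.41 ± 0.57 (log2, SE) was smaller than its error, and turned to -0.56 with quantile normalization, -0.55 with the deposited log2 values and -0.14 with normexp background correction. Itih2, a second classical heavy chain, had -4.23, -1.10, -5.90, -2.92 and -2.99 in medullary LCM samples, against -3.57, -4.26, -4.39, -5.55 and -5.83 in subcapsular LCM samples. The groups overlapped, with the lowest value in medullary replicate 3, and the difference was 1.29 ± 0.87.

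The sorted cells are other samples than those whose Itih3 difference chose the set. Itih2 had -0.95 and -3.31 in medullary FACS samples, against -6.59 and -5.08 in subcapsular FACS samples. Both medullary values were higher than both subcapsular values, and the difference was 3.70 ± 1.14 (log2, SE, n = 2 each). It is given with no test, because the gene passed the filter on low signals through the medullary samples alone, with 1 of 2 subcapsular values above background. With normexp background correction it was 1.59. Itih1 had -2.14 and -2.98 in medullary FACS samples, against -3.27 and -4.48 in subcapsular FACS samples, again with no overlap, and a difference of 1.31 ± 0.76 (limma adjusted p = 0.274). Groups without overlap and with medullary samples higher made up 43% of the 27627 genes tested in FACS. The median FACS difference over all genes tested was 0.73.

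Itih4 encodes a family member that is not joined to bikunin and is known as an acute-phase plasma protein. Its spread between LCM replicates was the largest of the 8 genes. Its level in medullary LCM samples was 1.28, -5.83, 0.50, 0.03 and -4.51, and in subcapsular LCM samples -1.48, -2.29, 4.24, -0.91 and -5.78. Subcapsular replicate 3 had the highest value of all 14 arrays, and each sinus held 1 value that was not above background, so the SD was 3.23 in medullary and 3.61 in subcapsular LCM samples. The LCM difference was -0.46 ± 1.91 (log2, SE) and lay between -1.59 and 0.91 when 1 array was left out.

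In sorted cells Itih4 had 1.29 and 1.89 in medullary FACS samples, against -2.02 and -1.72 in subcapsular FACS samples. All 4 values were above background and the sinuses did not overlap, which held for 43% of all genes tested in FACS with medullary samples higher. The median difference over all genes was 0.73. The difference of Itih4 was 3.46 ± 0.60 (log2, SE, n = 2 each), with an unadjusted p of 0.00457 and a limma adjusted p of 0.0822, and did not pass the threshold. The second Itih4 probe had -0.74 and -3.57 in medullary FACS samples, against -5.21 and -5.92 in subcapsular FACS samples, a difference of 3.40 in the same direction with no subcapsular value above background.

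The 2 Itih4 probes differed in LCM. The second probe was detected on 4 of 5 medullary LCM arrays and 2 of 5 subcapsular ones, with a difference of 0.82, where the brighter probe gave -0.46. In subcapsular LCM replicate 3, where the brighter probe had its highest value of 4.24, the second probe had -5.06 and was not above background. Both lie on the plus strand of chromosome 14 on mm9, the brighter at chr14:31714970-31715029 and the second at chr14:31711222-31711281. Their last 30 bases are shown because the values depend on which probe is read, and capitals mark AATAAA, the signal that precedes the poly(A) tail.
Itih4 brighter probe: tcccttgttacaAATAAAgaagggcagtgt
Itih4 second probe: cccatgaagctgttcgtagaccccagtcag

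**Figure D2:**
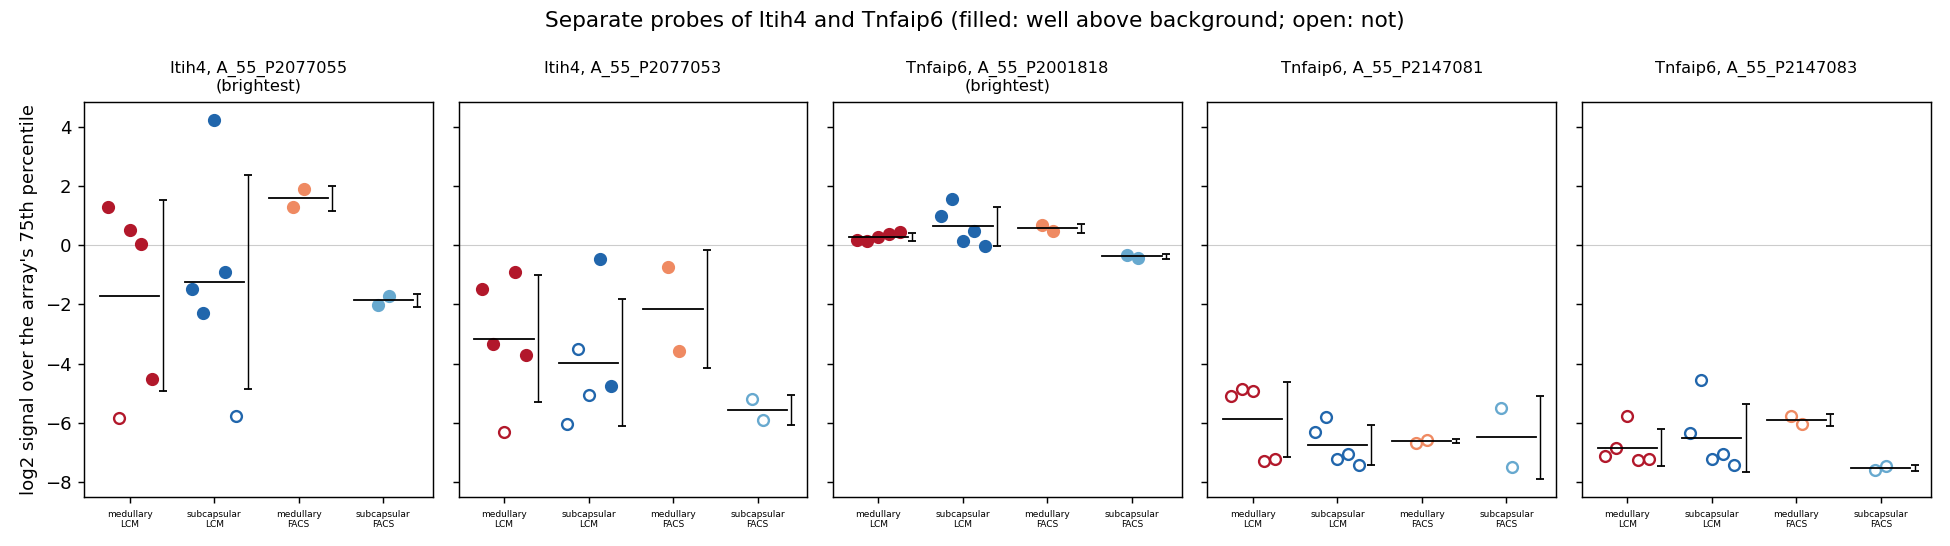
Level on each array (log2 signal over the 75th percentile of the array) of the 2 probes of Itih4 and the 3 probes of Tnfaip6, in medullary LCM, subcapsular LCM, medullary FACS and subcapsular FACS samples, with filled points above background, open points not, lines for means and bars for SD. The brightest Tnfaip6 probe is filled on all 14 arrays and the other 2 are open on all 14, while the Itih4 probes part most in subcapsular LCM replicate 3.

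Ambp encodes the precursor that is cut into bikunin and alpha-1-microglobulin, a carrier of small lipophilic molecules. Its level in medullary LCM samples was -4.57, 0.32, 0.72, -1.75 and -4.18, and in subcapsular LCM samples -4.86, -2.61, -4.31, -3.96 and -2.02. The medullary samples held both the highest values, in replicates 2 and 3, and values as low as those of the subcapsular samples, so the groups overlapped, and the difference was 1.66 ± 1.12 (log2, SE). In FACS it had -1.86 and -3.30 in medullary samples, against -4.83 and -4.47 in subcapsular samples. All 4 were above background without overlap, as were 43% of all genes tested in FACS with medullary samples higher. The difference of 2.07 ± 0.76 did not pass the test (limma adjusted p = 0.161), and the median over all genes was 0.73.

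Tnfaip6 had the smallest spread of the set in medullary LCM samples. The brightest of its 3 probes had 0.17, 0.13, 0.29, 0.39 and 0.45 in medullary LCM samples, against 1.00, 1.57, 0.14, 0.50 and -0.02 in subcapsular LCM samples, all above background and overlapping. The difference was -0.35 ± 0.47 (log2, SE) and was 0.38 when each array was scaled to its probes detected on every array. In FACS it had 0.68 and 0.47 in medullary samples, against -0.32 and -0.43 in subcapsular samples, without overlap. The difference of 0.94 ± 0.55 did not pass the test (limma adjusted p = 0.279), and the median over all genes was 0.73. Before scaling, the signal of this probe lay between 306 and 449 on all 14 arrays. It was 394 and 339 in medullary FACS samples, against 367 and 306 in subcapsular FACS samples. The 75th percentile that was subtracted was 7.94 and 7.94 (log2) on medullary FACS arrays, against 8.83 and 8.68 on subcapsular FACS arrays. The other 2 probes of Tnfaip6 were above background on 0 of 14 arrays, so the level of this gene rests on the brightest probe.

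The brightest Tnfaip6 probe has 32 T among its 60 bases. Of 106 probes on the array with at least as many T, 55.7% were above background on all 14 arrays, against 32.3% of all 55681 probes, and 10.4% were above background on no array, against 2.35% of all probes. The 3 genes most like Tnfaip6 across arrays were Sema4c (r = 0.977), Marf1 (r = 0.975) and Myod1 (r = 0.973), whose probes have 27, 34 and 32 T. Myod1 encodes a transcription factor of skeletal muscle. The part of base composition in the Tnfaip6 signal was not tested. The last 30 bases of the 3 probes, which lie on the plus strand of chromosome 2 on mm9, are shown with runs of at least 4 T and the signal AATAAA in capitals. They lie at chr2:51911507-51911566 for the brightest probe, chr2:51912073-51912132 for probe 2 and chr2:51912142-51912201 for probe 3.
Tnfaip6 brightest probe: atttgTTTTTgttgttgttgttggTTTTTT
Tnfaip6 probe 2: actttgtaaatatgattgttccctgcttta
Tnfaip6 probe 3: taaatattgctgtAATAAAtacTTTTggat

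Ptx3 was above background on all 14 arrays. Its level in medullary LCM samples was 0.92, 2.70, -3.76, -4.03 and -2.21, and in subcapsular LCM samples -2.89, -2.45, -3.07, -3.83 and -3.55. Medullary replicates 1 and 2 stood above every other sample, and medullary replicate 4 was the lowest of all, so the groups overlapped. The difference was 1.88 ± 1.23 (log2, SE), and it was 0.89 when medullary replicate 2 was left out. In FACS it had -2.98 and -2.59 in medullary samples, against -3.47 and -3.99 in subcapsular samples. The difference of 0.94 ± 0.59 did not pass the test (limma adjusted p = 0.303), and the median over all genes was 0.73.

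By the same measure of likeness over 14 arrays, the genes closest to Itih1 were Apcs, Tcl1b4 and Grid2ip (r = 0.854 to 0.856), and those closest to Itih2 were Radx, Ubqln5 and Rbp7 (r = 0.852 to 0.903). Fbxo24, Srrm4os and Cyp2c68 were closest to Itih4 (r = 0.815 to 0.834), Zfy1, Mill2 and Popdc2 to Ambp (r = 0.856 to 0.881), and Clrn2, Tspan9 and Fbxl13 to Ptx3 (r = 0.884 to 0.913). Several of these genes were above background on few arrays, namely 3 for Fbxl13, 4 for Ubqln5 and Zfy1 and 5 for Radx, Apcs and Fbxo24, so the correlations include values not above background.

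Across the set, 6 of 8 genes had a higher mean in medullary than in subcapsular LCM samples, with a median difference of 1.48 (log2), against 0.08 over all 27323 genes, of which 52.6% had a higher medullary mean. Of all genes in that comparison, 0.176% were called at a limma adjusted p under 0.05, and nothing is read from this contrast, by which the set was chosen. In FACS 5 genes were tested, namely Itih1, Itih4, Ambp, Tnfaip6 and Ptx3, and 0 of 5 was called by limma, as were 0 of all 27627 genes (0%). Itih4 alone of these had an unadjusted p under 0.05, as did 31.9% of all genes. The 5 differences were above 0, as were 59.5% of all genes. So was that of Itih2, which passed the filter through medullary samples alone. Of the genes outside the filter, Itih5 had a difference of -1.68, and Itih3, not above background on any FACS array, had 0.72.

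The remaining comparisons ask whether the levels differ between isolation methods and whether the sinus difference depends on them. In FACS minus LCM 6 genes were tested, since Itih3 was chosen by its LCM arrays and Itih5 passed the filter through medullary LCM samples alone. Limma called 0 of 6, where 3.86% of 29600 genes were called, and 0 of 6 had an unadjusted p under 0.05, against 16.1% of all genes. The differences lay between -1.04 ± 0.91 for Ptx3 and 1.34 ± 1.40 for Itih4 (log2, SE), with limma adjusted p from 0.647 to 0.975. That of Itih5 was -0.999 ± 1.21, with no test. With slide as a block the difference of Ptx3 turned to 1.42. The interaction contains the LCM sinus difference and is a description for all 8 genes. It was 3.92 ± 2.80 for Itih4, 2.41 ± 1.46 for Itih2 and 1.29 ± 0.70 for Tnfaip6 (log2, SE), each beside a median of 0.52 over all genes.

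**Figure D3:**
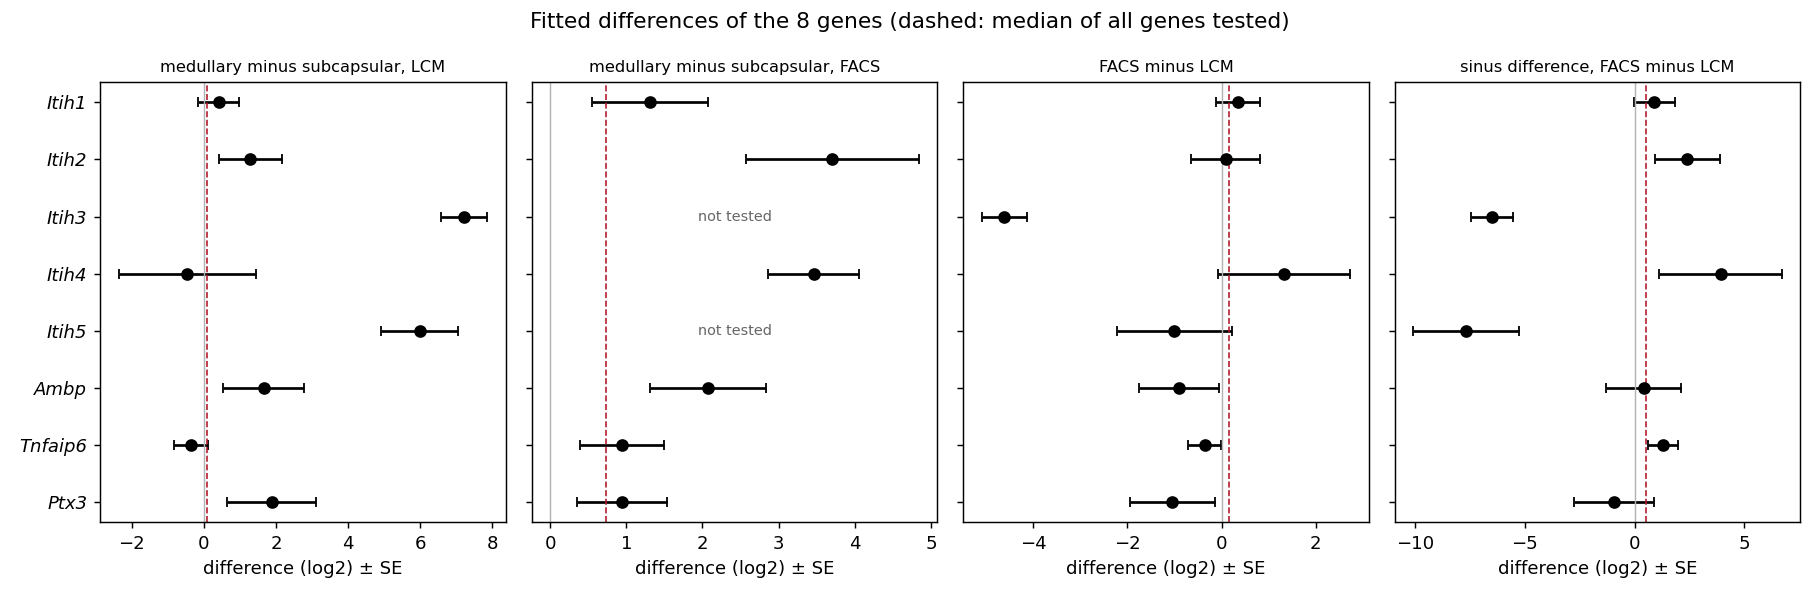
Differences of the 8 genes (log2, points, with SE as bars) for medullary minus subcapsular in LCM, medullary minus subcapsular in FACS, FACS minus LCM, and the interaction of sinus and isolation, with dashed lines at the median of all genes tested. Itih3 and Itih5 stand to the right in LCM, Itih2 and Itih4 are the largest in FACS, and Itih3 and Itih5 were not tested in FACS.

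Genes of the hyaluronan matrix were listed as the pathway in which heavy chains act. Of 19 such genes 15 were tested in LCM, 14 in FACS and 16 in the 2 comparisons over all arrays, and limma called 0 in each of the 4 comparisons, with 3, 3, 4 and 3 at an unadjusted p under 0.05. In the same order of LCM, FACS, FACS minus LCM and the interaction, 11.7%, 31.9%, 16.1% and 21.3% of all genes had an unadjusted p under 0.05, and limma called 1.29% of all genes in the interaction. Their median sinus difference was -0.27 in LCM and 1.39 in FACS, against 0.08 and 0.73 over all genes. Lyve1, a hyaluronan receptor of lymphatic endothelium, was above background on 0 of 2 medullary FACS and 1 of 2 subcapsular FACS arrays, against 3 of 5 LCM arrays of each sinus. Its FACS minus LCM difference was -2.81 ± 1.00 (limma adjusted p = 0.168). Tnc, which encodes the matrix protein tenascin C, differed by 2.62 ± 0.88 (limma adjusted p = 0.138), and Vcan, which encodes the hyaluronan-binding proteoglycan versican, by 1.82 ± 0.80 (limma adjusted p = 0.287).

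Among 15 measured genes of pentraxins and Ptx3 ligands, 12 were tested in FACS minus LCM and 1 was lower. C1qa, a chain of the complement protein C1q that Ptx3 binds, fell in FACS by 4.67 ± 1.17 on the log2 scale (limma adjusted p = 0.0433). The call ended with slide as a block (limma adjusted p = 0.443), and on leaving out 1 array for 12 of the 14 arrays. Its median was 3.08 in subcapsular LCM samples, and it was above background on all LCM arrays. The genes of the other C1q chains, C1qb and C1qc, were not called. In medullary and subcapsular samples C1qb had means of 1.72 and 2.01 in FACS, against 0.62 and 3.95 in LCM. C1qc had -3.25 and -3.14 in FACS, against -1.71 and -0.14 in LCM. Limma called 0 genes of this list in the LCM, FACS and interaction comparisons, with 3, 5 and 2 at an unadjusted p under 0.05. Crp, a short pentraxin, was above background on no array.

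Of 14 Kunitz and serpin-type inhibitor genes, 14 were tested in FACS minus LCM, and 2 were lower. App, whose longer forms carry a Kunitz domain, fell by 3.14 ± 0.36 on the log2 scale (limma adjusted p = 0.000254), and Serping1, the C1 inhibitor, fell by 3.59 ± 0.59 (limma adjusted p = 0.00443). Both calls held without any 1 array and ended with slide as a block (limma adjusted p = 0.0782 for App and 0.106 for Serping1). App had -2.94 and -2.93 in medullary FACS samples, against 0.96 to 1.61 in medullary LCM samples. Limma called 0 in the LCM, FACS and interaction comparisons, with 5, 4 and 5 at an unadjusted p under 0.05. Of 12 tested genes for serine proteases, Prtn3, a neutrophil granule protease, was higher in FACS by 3.66 ± 0.94 (limma adjusted p = 0.0490), a call that ended in 6 of 10 alternative fits, slide as a block among them (limma adjusted p = 0.181), and on leaving out 1 array for 11 of the 14. The interaction of Prss2, which encodes a trypsinogen, was 6.46 ± 1.12 (limma adjusted p = 0.0191), and the call held in 9 of 11 alternative fits, slide as a block among them. Without subcapsular FACS replicate 6 or 7 its limma adjusted p was 0.0684 and 0.149. Prtn3 and Prss2 passed the filter on low signals through medullary FACS samples alone, so nothing is read from these calls. Prss2 was above background on 1 of 5 medullary LCM, 2 of 5 subcapsular LCM, 2 of 2 medullary FACS and 0 of 2 subcapsular FACS arrays. For Prtn3 it was 2 of 5, 0 of 5, 2 of 2 and 1 of 2 in the same order. Limma called 0 protease genes in the LCM and FACS sinus comparisons, with 0 and 4 at an unadjusted p under 0.05.

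Of 13 tested inflammatory genes that are induced together with Tnfaip6 and Ptx3 in other settings, 1 was higher and 1 lower in FACS minus LCM. Cxcl2, a neutrophil chemokine, was higher by 4.45 ± 0.72 (log2, SE, limma adjusted p = 0.00393), and Icam1, a leukocyte adhesion molecule, fell by 4.41 ± 1.08 (limma adjusted p = 0.0400). The call of Cxcl2 held in all 10 alternative fits and without any 1 array, while that of Icam1 ended with slide as a block (limma adjusted p = 0.630) and on leaving out 1 array for 11 of the 14. Ptgs2, the inducible cyclooxygenase, was above background on 0 of 2 medullary FACS and 2 of 2 subcapsular FACS arrays. Its interaction was -5.66 ± 1.17 (log2, SE, limma adjusted p = 0.0383), and the call ended with slide as a block (limma adjusted p = 0.0752) and on leaving out 1 array for 7 of the 14. Limma called 0 of these genes in the LCM and FACS sinus comparisons, with 0 and 5 at an unadjusted p under 0.05.

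Some markers of other cell types also differed between the sinuses in LCM. Of 13 genes of blood endothelium and high endothelial venules, 12 had a higher mean in medullary than in subcapsular LCM samples, against 52.6% of all genes. Limma called 3 of the 13 higher, namely Fut7, Ackr1 and Chst4, where 0.176% of all genes were called in either direction. The call of Chst4 ended in 9 of 13 alternative fits and on leaving out 1 array for 9 of the 10. In FACS 0 of 12 was called, with 3 at an unadjusted p under 0.05. Their summed signal, in multiples of the 75th percentile of the array, was 223 to 373 in medullary LCM samples, against 44.2 to 191 in subcapsular LCM samples. It was 6.84 and 55.3 in medullary FACS samples, against 82.5 and 229 in subcapsular FACS samples, and 8 of the 13 genes were above background on all arrays. The part of these cells in the Itih3 and Itih5 values was not tested.

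Genes of hepatocytes and plasma proteins were counted because the liver is the known source of Ambp and several heavy chains. Of 16 such genes, Hpx and Rbp4 were above background on no array, and limma called 0 in the LCM and FACS sinus comparisons, with 3 and 4 at an unadjusted p under 0.05. In LCM 6 of 8 tested genes had a higher mean in medullary samples, and the median difference was 0.72, against 0.08 over all genes. In FACS 5 of 9 had a higher mean in medullary samples, with a median difference of 2.12, against 0.73 over all genes. The interaction was above 0 for 5 of 10 and below 0 for 5, with a median of 0.51, against 0.52 over all genes. The summed signal of the 16 genes was 20.4 to 62.8 in medullary LCM samples, against 27.6 to 212 in subcapsular LCM samples. It was 4.95 and 17.5 in medullary FACS samples, against 8.72 and 26.1 in subcapsular FACS samples. Without Trf, which encodes transferrin, the sum of the other 15 genes was 8.78 to 18.0 in medullary LCM samples, against 3.59 to 22.4 in subcapsular LCM samples. Alb, which encodes albumin, was detected on 4 of 5 medullary LCM arrays with a median of -0.12, against 1 of 5 subcapsular LCM arrays with a median of -5.90. It was detected on 0 of 2 medullary FACS arrays and on 2 of 2 subcapsular FACS arrays, and its interaction was -8.17 ± 1.79 (log2, SE, limma adjusted p = 0.0468). That call ended with slide as a block (limma adjusted p = 0.0963) and on leaving out 1 array for 12 of the 14. Serpina1a, an antitrypsin gene with close copies whose probe may read several of them, fell in FACS minus LCM by 3.50 ± 0.61 (limma adjusted p = 0.00618), and the call ended with slide as a block (limma adjusted p = 0.158) and without subcapsular FACS replicate 6 (limma adjusted p = 0.0508).

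Macrophage genes summed to 76.6 to 169 in medullary LCM samples, against 311 to 1328 in subcapsular LCM samples, with 9 of 9 tested genes lower and 0 called by limma (5 at an unadjusted p under 0.05). In FACS 0 of 11 was called, with 4 at an unadjusted p under 0.05. Fibroblastic reticular and mesenchymal genes summed to 57.6 to 112 in medullary LCM samples, against 142 to 450 in subcapsular LCM samples, and 6 of 11 were called lower in FACS minus LCM, against 2.04% of all genes. With slide as a block 1 of 11 was called lower. Limma called none of them between the sinuses, with 3 in LCM and 2 in FACS at an unadjusted p under 0.05. Genes of lymphatic endothelium summed to 28.2 to 60.7 in medullary LCM samples, against 24.4 to 120 in subcapsular LCM samples, and to 2.61 and 7.90 in medullary FACS samples, against 18.6 and 44.3 in subcapsular FACS samples. Limma called none of these between the sinuses, with 1 in LCM and 5 in FACS at an unadjusted p under 0.05. Of the lists for smooth muscle cells, adipocytes, neutrophils, dendritic cells, B cells and T cells, limma called no gene between the sinuses in LCM or FACS. In FACS minus LCM, limma called 2 of 11 macrophage, 1 of 11 lymphatic, 1 of 13 blood endothelial and 1 of 7 B cell genes lower, against 2.04% of all genes. It called 1 of 7 adipocyte and 2 of 7 dendritic cell genes higher, where 539 of 29600 genes were called higher. In the interaction it called 1 of 11 lymphatic and 2 of 13 blood endothelial genes, all negative, where 1.29% of all genes were called in either direction. With slide as a block, 1 macrophage and 1 blood endothelial gene were called lower in FACS minus LCM, and 1 lymphatic and 1 blood endothelial gene in the interaction. In LCM these lists had 2, 1, 2, 0, 5 and 2 genes at an unadjusted p under 0.05, and in FACS 0, 4, 0, 1, 4 and 0.

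**Figure D4:**
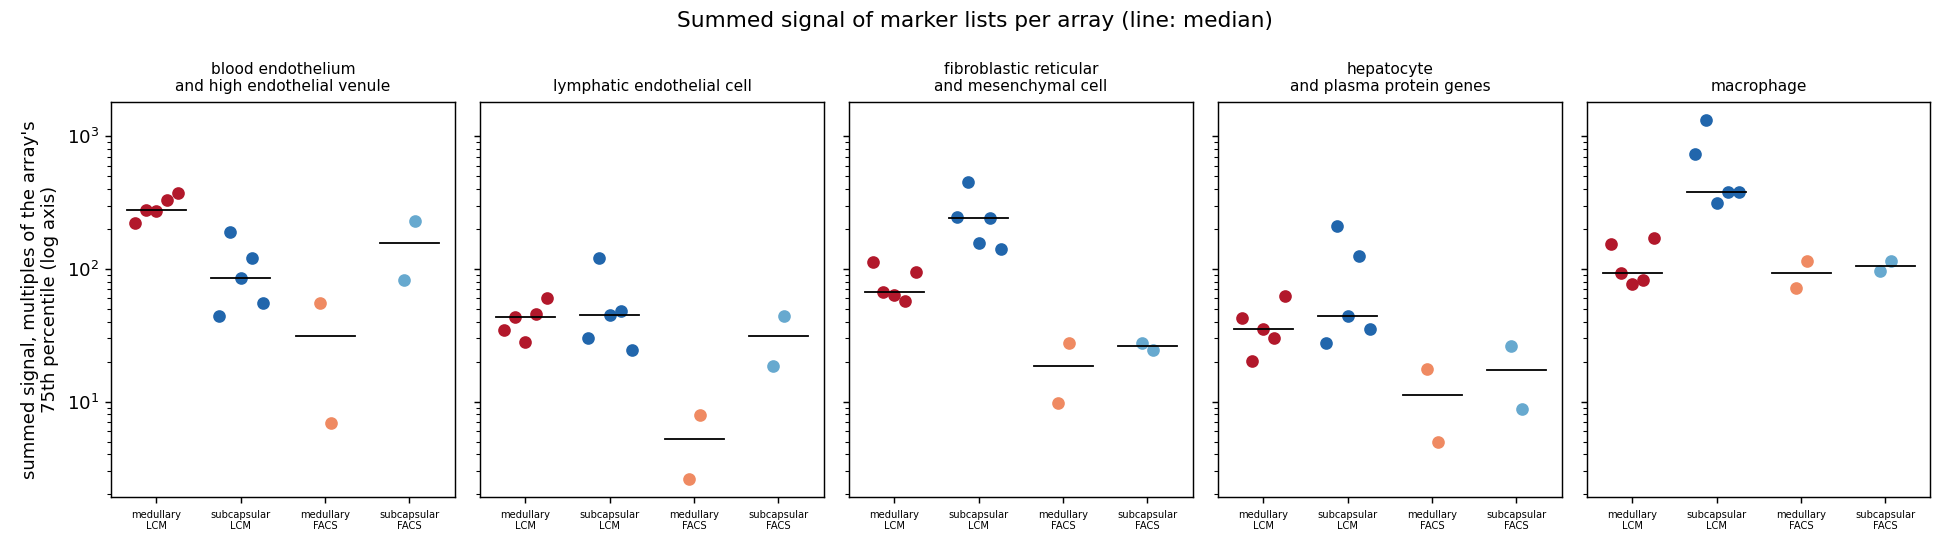
Summed signal of 5 marker lists per array (log axis, multiples of the 75th percentile of the array) in medullary LCM, subcapsular LCM, medullary FACS and subcapsular FACS samples, with lines at medians. The blood endothelial list is higher in all 5 medullary LCM samples than in the subcapsular LCM samples, and macrophage and mesenchymal lists are lower.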

How the data were processed

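Gene expression was measured in 14 samples with 1 Agilent array each. Per the file headers, the scanner files came from Agilent Feature Extraction 10.7.3.1, and hold a background-subtracted intensity per spot that is not scaled across arrays. A second set of values, deposited by the authors, is on the log2 scale with nearly equal medians on all arrays; its method is not given in the sources used here, and it served as an alternative.

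Intensities were log2 transformed and the array's 75th percentile over non-control probes was subtracted, after leaving out spots marked as outliers and averaging repeated spots. A gene was tested in LCM when above background on 3 or more of the 5 arrays of either sinus, in FACS on 2 of 2, and over all arrays when either held. Differences (medullary minus subcapsular, FACS minus LCM, and the interaction of sinus and isolation) were fitted over all genes with limma 3.58.1 in R 4.3.3 (files read with data.table, version 1.17.8). The fits of all 14 arrays had array weights by isolation, and the call threshold was 0.05 for p adjusted over all genes by Benjamini-Hochberg. No test is given for the 8 genes in the LCM sinus comparison and the interaction that contains it, or for Itih3 in FACS minus LCM. Nor is one given where 1 of the 8 genes passed the filter through 1 group alone (Itih2 in FACS, Itih5 in FACS minus LCM). Tests of list genes were kept in that case, as for Prss2 and Prtn3. These fits were tested on simulated data. The number of arrays limits the precision.

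Of the probes, 27224 were named by RefSeq accession, 3581 and 565 by current and older symbols, 24300 by the file's own name, and 11 were those of the 8 genes. The text names all 8 genes, and of each of 5 pathway lists up to 4 genes, those called first and then those with the lowest unadjusted p in FACS minus LCM. C1qb and C1qc are named beside C1qa as the other chains of C1q. It also names the 3 genes with the highest correlation over the 14 arrays for each of the 8 genes. The 11 marker lists are given by counts and sums, and marker genes named singly were chosen after their values were seen. The 8 genes and all lists were chosen with earlier results of these data known. Samples of the same replicate number had deviations from their group means that correlated by -0.02 to 0.02. In LCM the highest correlation with a sample of another number was only 0.02 to 0.03, and 2 samples per group in FACS allow no such comparison. The check therefore could not tell whether numbers pair samples, and the main fits did not use them as pairs. Python 3.11.15 and matplotlib 3.10.9 made the figures. The sequence of the Itih3 probe is not reported here.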

Additional observations from a re-analysis of the deposited data

Results flagged for a closer look

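Among the 16 sets of 5 LCM values, 1 for each of the 8 genes in each sinus, 1 had a sample far from the others by Dixon's gap test, and chance flags about 1 in 20. Itih5 in subcapsular LCM replicate 5 had a level of -1.52 (log2), where the next of its group had -5.75, and the gap took up 0.747 of the whole range, above the critical value of 0.710. This array was the only subcapsular LCM array in row 2 of the slide and the only one of its group with Itih5 above background; the part of either in the value was not tested.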

How the results depend on the processing

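The Itih3 difference in LCM was 7.00 to 7.95 under all alternatives run except normexp background correction, which gave 3.38, and 6.95 to 7.61 when 1 array was left out. Itih5 gave 2.44 with normexp. Scaling each array to the probes detected on every array moved every LCM difference by 0.73. Of 644 other alternative values of the 8 genes, 618 moved by less than the spread between replicates and 26 by more. Those of the LCM sinus comparison and the interaction, among others, carried no test. Only values with a test could become a call, and none did. The share of all genes called in LCM (0.176%) was 0.0293% with normexp, 0.0549% with quantile normalization, 0.838% with the other percentile, 0.0586% with the deposited values, 0.104% without a filter, 0.509% with a stricter filter, 0.465% with slide as a block, 0.776% on slide 1 alone and 0.0512% with row as a block. In FACS (0%) it was 6.52% with trend and robust moderation and 16.2% with all 14 arrays. In FACS minus LCM (3.86%) it was 2.52% without array weights and 0.551% with slide as a block. In the interaction (1.29%) it was 2.31%, 3.88% and 3.83% with normexp, quantile and deposited values, 0.733% without a filter, 1.97% with a stricter one, 0.361% without weights and 0.628% with slide as a block. The replicate block gave 0% in LCM, FACS and the interaction, though whether numbers pair samples could not be told. It could not be fitted for FACS minus LCM. Leaving out 1 array gave 0% in FACS, and in LCM 0.0622% (medullary replicate 2) to 0.351% (subcapsular replicate 5 or medullary replicate 4), with 0.337% without medullary replicate 5. It gave 2.00% and 2.13% (subcapsular FACS replicates 6 and 7) to 5.28% in FACS minus LCM. In the interaction it gave 0.0372% and 0.321% (subcapsular FACS replicates 7 and 6), 0.848% and 0.851% (medullary LCM replicates 2 and 3), and 2.20% and 3.72% (medullary FACS replicates 7 and 6). None of the 5 genes tested in FACS or the 6 in FACS minus LCM was called in any of these fits. Of 13 calls of named genes of the lists, that of Cxcl2 in FACS minus LCM held in every alternative fit, and none changed direction. Cxcl2 passed the filter through FACS samples alone, and most of its LCM values were not above background. The 2 or 5 samples per group and signals near background limit what can be called.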
